A study of Mus musculus with 6 samples.

Results

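Goblet cells and Paneth cells are the secretory cells of the small intestinal epithelium, and 10 genes that mark or make their products were followed here: Muc2, Tff3, Agr2, Spdef, Reg3b, Reg3g, Lyz1, Mmp7, Ang4 and Atoh1. They were taken by gene symbol, or by an older name of the same gene, from the annotation of the array's probes. Of the 10 genes, 9 were read by a named probe, out of 16637 genes that the array names in all, and Ang4 was not analysed here because no probe carried its name or an older one. The 9 genes had 12 probes, 4 of them for Muc2 and 1 for each of the other 8.

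Male transgenic FVB mice, 6 to 8 weeks old, either received 8.5 Gy of X-rays to the total body or were left untreated, and RNA of brain, liver and intestine was taken 3 h after the dose. Both groups carried a luciferase gene driven by NF-κB-responsive elements, so the transgene did not differ between them. The values are 1 column of linear, Cy5 spot intensities for each organ and treatment, 6 samples in all. The study's methods name 6 replicates from 6 independent mice, but how these relate to the single column of an organ and treatment is not said, so no SD, p-value or replicate check is given, and a call below means only that the irradiated and untreated intensities of a gene differed by more than 1.8-fold, the threshold used in the study.

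Goblet cells secrete the gel that covers the epithelium. MUC2 forms its network, AGR2 is a protein disulfide isomerase of the endoplasmic reticulum that mucin folding needs, and TFF3 is a trefoil peptide packed with the mucin. Paneth cells sit at the crypt base and release lysozyme, α-defensins and other antimicrobial proteins, while the REG3 lectins come from enterocytes as well as Paneth cells. The transcription factor ATOH1 commits crypt progenitors to the secretory lineages, and SPDEF acts below it in the maturation of goblet and Paneth cells.

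In the intestine the secretory genes did not move as a block. Reg3b, a lectin that kills or binds bacteria at the mucosa, was 2.55-fold higher after irradiation, and Lyz1, the lysozyme of Paneth cells, was 4.17-fold lower. The other 7 measured members stayed within 1.8-fold. Tff3 was the next highest at 1.49-fold, and Mmp7, the protease that activates Paneth cell α-defensins in mice, differed by 1.15-fold in the lower direction. Outside the 10 genes, lists of 10 measured Paneth cell genes, 5 Reg genes and 7 relatives of the members were read beside them. Of these, 4 were lower past the threshold, Lyz2 by 3.52-fold, Reg3a by 3.10-fold, Itln1 by 2.78-fold and Cd24a by 1.87-fold. Past it in the other direction was 1, Reg1, 1.81-fold higher. Over all named genes 1.72% were higher and 2.79% lower. Over genes with a geometric mean intensity of at least 1000 the shares were 9.39% and 8.52%. Of the 10 Paneth cell genes, 4 had a higher value after irradiation, all of them dimmer than Itln1 and Cd24a, and 1 of these, Habp2, read 77.6 in both samples.

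The Reg3 genes are near neighbours on mouse chromosome 6 and gave 3 different values, so their start regions are shown. Each line holds 250 bases before and 50 after the annotated start in the reference sequence of RefSeq (GRCm38.p6), 5′ to 3′ on the gene's own strand. Reg3b lies at chr6:78370635-78370934 (plus strand), Reg3g at chr6:78468825-78469124 (minus strand) and Reg3a at chr6:78380459-78380758 (plus strand). Capitals mark each match, on either strand, to the TATA box TATAAA and to the STAT factor motif TTCNNNGAA.
Reg3b: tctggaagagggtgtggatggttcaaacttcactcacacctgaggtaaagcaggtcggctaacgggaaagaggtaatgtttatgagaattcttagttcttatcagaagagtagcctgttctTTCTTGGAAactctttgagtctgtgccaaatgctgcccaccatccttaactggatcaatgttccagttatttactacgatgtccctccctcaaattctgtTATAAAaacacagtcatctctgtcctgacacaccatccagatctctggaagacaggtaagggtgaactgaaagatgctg
Reg3g: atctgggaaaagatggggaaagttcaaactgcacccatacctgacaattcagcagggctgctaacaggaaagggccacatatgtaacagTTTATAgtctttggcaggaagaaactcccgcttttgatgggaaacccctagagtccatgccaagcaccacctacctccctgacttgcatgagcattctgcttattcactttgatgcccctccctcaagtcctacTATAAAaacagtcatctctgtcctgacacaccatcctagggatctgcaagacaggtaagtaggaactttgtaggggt
Reg3a: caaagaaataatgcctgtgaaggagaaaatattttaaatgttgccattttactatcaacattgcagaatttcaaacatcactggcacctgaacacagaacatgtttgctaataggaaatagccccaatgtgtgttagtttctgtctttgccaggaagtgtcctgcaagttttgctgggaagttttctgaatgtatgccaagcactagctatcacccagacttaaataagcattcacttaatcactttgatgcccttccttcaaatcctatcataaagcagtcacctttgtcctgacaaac

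TATAAA began 29 bases before the start of Reg3b and 27 bases before that of Reg3g, and Reg3g held a further copy on the other strand 161 bases upstream. TTCNNNGAA was found 129 bases before the start of Reg3b, and neither motif was found in the Reg3a window. Of 32851 mouse promoter windows of the same length, 13.6% held TATAAA and 8.3% held TTCNNNGAA, and among the members TATAAA was also present at Muc2 and Mmp7 and TTCNNNGAA at Ang4. The 2 motifs did not overlap in these windows. A match is only a run of letters, and binding was not measured. The windows of Reg3b and Reg3g had the same base at 207 of 296 aligned positions (69.9%), with 8 gap positions left out of that share. Those of Reg3g and Reg3a matched at 182 of 251 (72.5%), with 98 gap positions left out. Those of Reg3b and Reg3a matched at 168 of 246 (68.3%), with 108 left out. These shares cover different lengths, so they do not rank the windows by likeness. Letters that all the windows share lie nearer the end in that of Reg3a, so it lacks a match to the last bases of the others. It does cover the stretch that holds TATAAA near the start of Reg3b and Reg3g, and reads cataaa there. Reg3b and Reg3a are 7.2 kb apart, and Reg3g lies 92.8 kb from Reg3b.

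Lyz1 and Lyz2 are a tandem pair on chromosome 10, 5.5 kb apart, and both were lower after irradiation. Their windows, Lyz1 at chr10:117292819-117293118 and Lyz2 at chr10:117282223-117282522 (both on the minus strand), are shown because the 2 copies are so alike. Capitals here mark the bases that differ between the windows or stand opposite a gap.
Lyz1: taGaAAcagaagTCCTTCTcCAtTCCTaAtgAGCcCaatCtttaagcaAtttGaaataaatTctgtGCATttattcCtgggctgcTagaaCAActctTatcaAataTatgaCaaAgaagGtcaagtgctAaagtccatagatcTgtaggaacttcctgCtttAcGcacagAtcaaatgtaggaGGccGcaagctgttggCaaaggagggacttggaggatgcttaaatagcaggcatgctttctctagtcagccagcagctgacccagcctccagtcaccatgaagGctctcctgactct
Lyz2: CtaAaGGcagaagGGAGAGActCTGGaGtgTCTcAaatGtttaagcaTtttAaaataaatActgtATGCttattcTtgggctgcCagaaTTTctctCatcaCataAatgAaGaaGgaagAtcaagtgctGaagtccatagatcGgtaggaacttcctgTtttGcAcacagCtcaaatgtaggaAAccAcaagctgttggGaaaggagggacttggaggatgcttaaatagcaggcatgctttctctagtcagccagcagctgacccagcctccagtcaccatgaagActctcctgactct

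These windows had the same base at 249 of 298 aligned positions (83.6%), and the capitals lie mostly in the upstream part, while the stretch around the start is nearly free of them. Neither window held TATAAA or TTCNNNGAA. The probes' own sequences were not used here, so how far a probe for Lyz1, for a Reg3 gene or for an angiogenin also reads a close copy was not tested.

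The column of each organ fixes the scale on which the members can be read. Intestine intensities ran from 36 to 56401.5 with a median of 64.5 in the untreated sample and 64 in the irradiated sample. Liver intensities had a median of 54 and a highest value of 58716, and brain intensities a median of 103 and a highest value of 49062. Within an organ the sorted values of the irradiated and untreated samples nearly coincided, with a largest gap of 0.05 in liver, 0.04 in intestine and 0.03 in brain on the log2 scale, so a ratio reports how a probe moved relative to the other probes of that organ. The lowest and median values differ between organs, so levels are set across organs as the percentile of a probe within its own column. In a bulk sample, fewer cells of a type and less RNA per cell cannot be told apart.

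**Figure D1:**
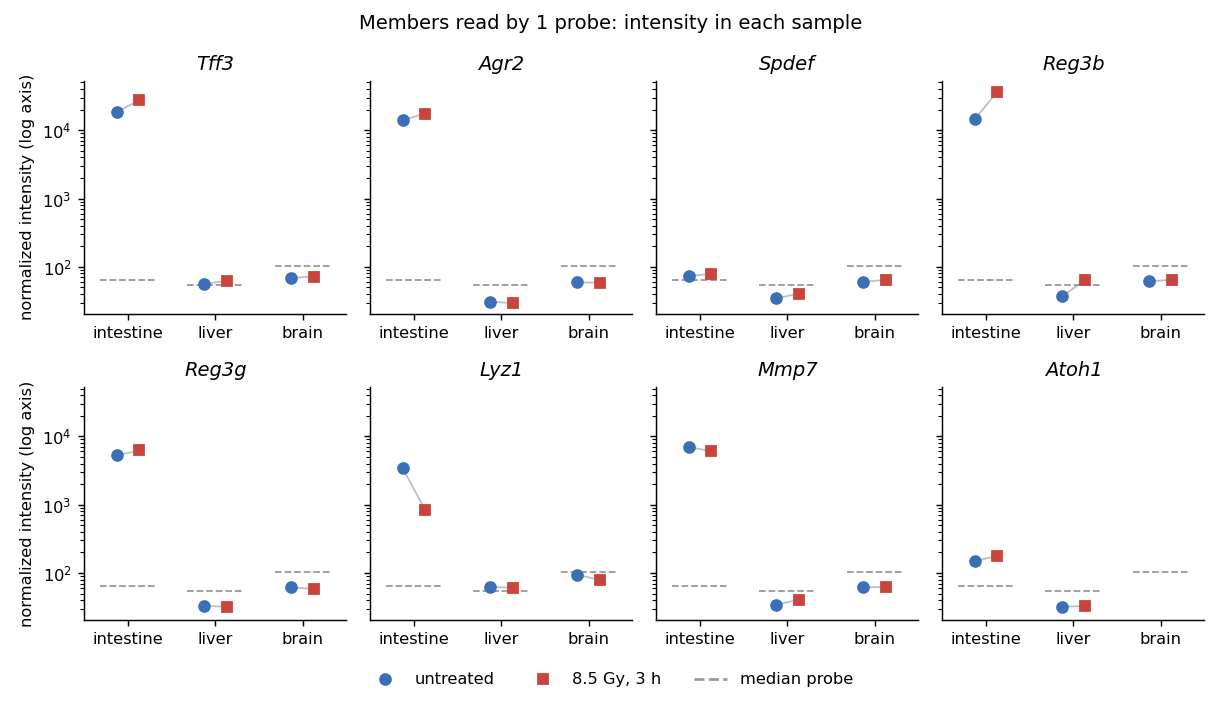
Normalized intensity (log axis) of the 8 members read by 1 probe, in untreated (blue circles) and irradiated (red squares) intestine, liver and brain, 1 sample each; the dashed lines are the median probe of the organ. Every one of these genes had its highest percentile in the intestine, Reg3b moved from 14384 to 36677.5 there and Lyz1 from 3446 to 826, and Atoh1 had no value in brain.

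Among the goblet cell members, Tff3 had the largest ratio in intestine. It read 18385 in the untreated sample and 27470.5 in the irradiated one, a log2 difference of 0.58. Its rank among 29781 probes went from 58 to 33. In liver it read 56 and 62.5, and in brain 69 and 72.25, which put it near the median probe in liver and in the lower part of the column in brain.

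Agr2 read 14076.5 in untreated and 17489.5 in irradiated intestine, 1.24-fold higher and within the threshold. In liver it read 31 and 29.5, and in brain 59.5 and 58.5. These liver and brain values were among the dimmest of their columns, at or below percentile 2.89.

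Spdef, the transcription factor, read 73 in untreated and 79 in irradiated intestine, just above the median probe, a log2 difference of 0.11. It read 34.5 and 40.5 in liver and 60.5 and 64.5 in brain, where both values lay in the lower part of the columns. A level this close to the bulk of the probes leaves little room to see a lower value.

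Muc2 was read by 4 probes that disagreed. The probe mMC017590 was the only one of the 4 that was bright in the intestine and dim elsewhere. It read 2326 in untreated and 4070.5 in irradiated intestine, a log2 difference of 0.81 and just under the threshold, with 34.5 and 33 in liver and 61.5 and 65.5 in brain. The probe mMC004324 was bright in all organs relative to their medians, at 175 and 183 in intestine, 212.5 and 392.5 in liver and 367 and 284 in brain. The liver difference of that probe was 1.85-fold, past the threshold. The probes mMC014204 and mMC012781 read 99 and 124.5, and 50 and 49, in intestine.

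Averaged over the 4 probes, Muc2 differed by 0.29 on the log2 scale in intestine, 0.06 in liver and -0.14 in brain, all within 1.8-fold. The probe with the intestinal pattern thus differed more than the mean over probes. Which of the probes reads the Muc2 transcript best was not tested.

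**Figure D2:**
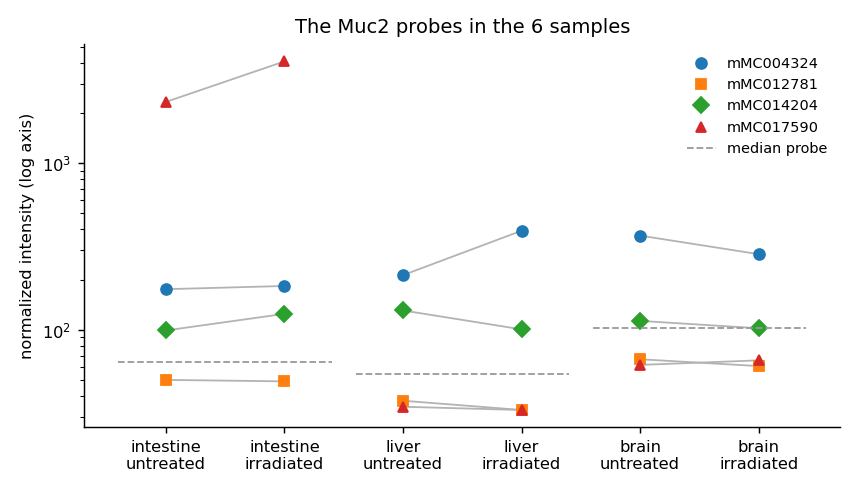
Normalized intensity (log axis) of the 4 Muc2 probes in each of the 6 samples, with grey lines joining the untreated and irradiated samples of an organ and dashed lines at its median probe. The red triangles (mMC017590) are at 2326 and 4070.5 in intestine and near the bottom of the column in liver and brain, while the blue circles (mMC004324) lie above the median in every organ.

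The antimicrobial members held both calls. Reg3b read 14384 in untreated and 36677.5 in irradiated intestine, a log2 difference of 1.35. Its rank among the probes went from 82 to 19, and of 16595 genes with a value 43 had a log2 difference as high or higher, Reg3b included. It read 37 and 63.5 in liver, a log2 difference of 0.78 that starts below the median probe, and 61.5 and 64.5 in brain. The probe is listed under the older name Pap, which is also an older name of Papola; Papola has probes under its own name, and this probe was read as Reg3b.

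Reg3g, the closest relative of Reg3b among the members, read 5267.25 in untreated and 6209.5 in irradiated intestine, only 1.18-fold higher. It read 33 and 32 in liver and 61.5 and 58.5 in brain, at or below percentile 6.37 in each of those 4 samples. The 2 lectins thus shared a bright intestinal signal and differed in the size of their irradiated to untreated ratio, by an amount whose error could not be measured.

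Lyz1, listed as Lyz, read 3446 in untreated and 826 in irradiated intestine, a log2 difference of -2.06. Its rank went from 337 to 1249, and 30 of 16595 genes had a log2 difference as low or lower, Lyz1 included. It read 62.5 and 61 in liver and 94.5 and 79 in brain, so the low value after irradiation appeared in the intestine, where the gene was also brightest. Even in irradiated intestine Lyz1 stayed at percentile 95.8 of its column.

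Mmp7 read 6971 in untreated and 6087 in irradiated intestine, a log2 difference of -0.20. It read 34.5 and 40.5 in liver and 61.5 and 62.5 in brain. Like Lyz1 it is made by Paneth cells in the mouse gut, and unlike Lyz1 its 2 intestinal values were close.

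Atoh1, which sets the secretory fate, read 148 in untreated and 179 in irradiated intestine, 1.21-fold higher. It read 32 and 33 in liver and had no value in brain. Both intestinal values lay well above the median probe, at percentiles of 79.3 and 82.6.

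Counted over the members, 1 of 9 was past 1.8-fold higher in intestine and 1 of 9 past 1.8-fold lower. Over all 16595 named genes with a value, 1.72% were higher and 2.79% lower by the same rule. Bright genes passed the threshold more often. Of 575 genes with a geometric mean intensity of at least 1000 in intestine, 9.39% were higher and 8.52% lower. Against that second share the members' counts do not stand out, since 6 of the 9 measured members, Tff3, Agr2, Reg3b, Reg3g, Lyz1 and Mmp7, belong to those bright genes. The median log2 difference of the 9 members was 0.27, beside 0.02 over all named genes and 0.19 over the bright ones, and 7 of the 9 were above 0.

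**Figure D3:**
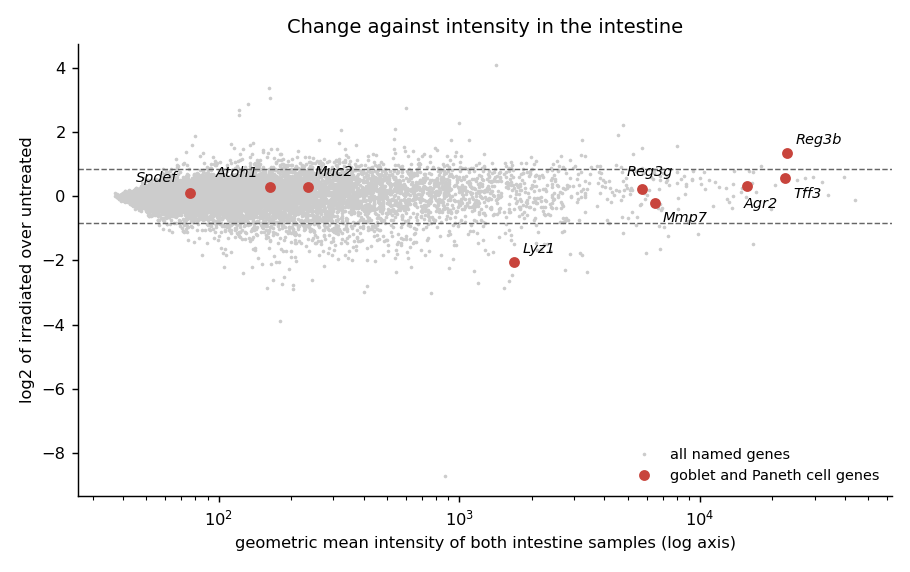
Log2 of irradiated over untreated intensity in intestine against the geometric mean intensity of both samples (log axis), for all named genes (grey) and the 9 measured members (red), with dashed lines at 1.8-fold. Reg3b at 1.35 and Lyz1 at -2.06 lie outside the lines, and the other 7 lie inside them.

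In liver 0 of 9 measured members was past 1.8-fold in either direction, and over 16118 genes the shares past it were 1.51% upward and 2.53% downward. Brain had calls in 0 of 8 measured members, beside 0.447% upward and 0.919% downward over 15662 genes. At shares this low, 9 or 8 genes give counts near 0. Only 3 members in liver and 1 in brain had both intensities at or above the median of their columns, so most of these ratios are between values near the floor of the array. The medians of the members' log2 differences were 0.06 in liver and -0.00 in brain.

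Of 16 further goblet cell genes 14 were measured, and 1 was past 1.8-fold higher and 0 lower in intestine, beside 1.72% and 2.79% of all named genes. Their median log2 difference was 0.23, beside 0.02 over all named genes, with 10 above 0 and 4 below. It was 0.19 over the bright genes, to which most of these goblet cell genes do not belong. The call was Sytl2, a synaptotagmin-like protein of secretory granule transport, at 208.5 and 449 (2.15-fold higher). Sytl2 also read 577.25 and 683 in brain, above the median probe there, so it is not particular to goblet cells. Zg16, a lectin of the mucus, read 8832 and 11616, 1.32-fold higher and within the threshold.

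Not every goblet cell gene was higher. Muc4 and Tff1, the unmeasured genes of the list, were matched to no probe. For trefoil factor 1 the study itself reports a lower value in intestine, past 1.8-fold, which the counts here do not include. Muc13, a transmembrane mucin, read 795.5 and 447 on 1 probe and 8477.5 and 8061.5 on the other, both lower and within 1.8-fold. Retnlb, a goblet cell hormone-like protein that acts against bacteria, read 1316 and 785.5, 1.68-fold lower. Clca1, a secreted mucus protein picked out after its values were seen, had 3 probes and was higher on each, at 1514.5 and 3045, 120 and 198, and 91.5 and 152. Its mean was 1.77-fold. The probe at 120 and 198 is listed as Clca1, an older name of Clca3a1, and without it Clca1 was 1.83-fold higher, which makes 2 calls among the 14 genes.

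Of the other Paneth cell genes, 10 of 24 were measured, and no probe was matched to any of the 13 α-defensin genes in the list. Of the 10, 0 were higher and 2 lower past 1.8-fold, and the median log2 difference was -0.25. Over all named genes 2.79% were lower, and over the bright genes, to which both calls belong, 8.52%. Itln1, intelectin, a lectin of Paneth and goblet cells, read 27545.5 in untreated and 9925 in irradiated intestine (2.78-fold lower), while its liver values of 45 and 81.5 ran the other way from below the median. Cd24a, a surface protein of Paneth cells that many other cells also carry, read 2849.5 and 1526, 1.87-fold lower.

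The remaining bright Paneth cell genes were within the threshold. Pla2g2a, a secreted phospholipase that attacks bacterial membranes, read 9290 and 7120.5 (log2 -0.38). Mptx1, a mucosal pentraxin, read 7625 and 5886 (log2 -0.37). Sox9, a dimmer gene for a transcription factor that Paneth cells need, read 209.5 and 233.5. Of the 10 genes 4 were above 0 and 6 below. Those above 0 were Sox9, Ephb3 at 74 and 99, Nod2 at 58.2 and 81.1, and Habp2 at 77.6 in both samples. All of them were dimmer than Itln1, Cd24a, Pla2g2a and Mptx1, which were all lower.

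In the other Reg genes the directions were split, as they were between Reg3b and Lyz1. Of 5 measured, 1 was higher and 1 lower, beside 1.72% and 2.79% of all named genes and 9.39% and 8.52% of the bright ones. Reg3a read 3863.5 in untreated and 1245.5 in irradiated intestine (3.10-fold lower), against the higher value of its neighbour Reg3b. Reg1 read 366 and 663.75, 1.81-fold higher and barely past the threshold. Reg4, a marker of secretory cells, read 661.5 and 573, and Reg2 and Reg3d had intensities below the median probe.

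Among 7 measured relatives of the members, 6 were below 0, beside 7339 of 16595 named genes, and 1 was called, as lower. The share called lower was 2.79% over all named genes and 8.52% over the bright ones. Lyz2, the lysozyme of macrophages and other myeloid cells, listed as Lyzs, read 901 and 256 (3.52-fold lower). Of the angiogenins, which are ribonucleases related to Ang4, Ang5 read 2650 and 1590.5 (1.67-fold lower), Ang2 read 1459 and 997, and Ang read 4928.25 and 4510. Lyz1 and Lyz2 were thus both lower, although Lyz1 is the Paneth cell gene and Lyz2 the myeloid one, and a probe's reading of the other copy was not tested.

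**Figure D4:**
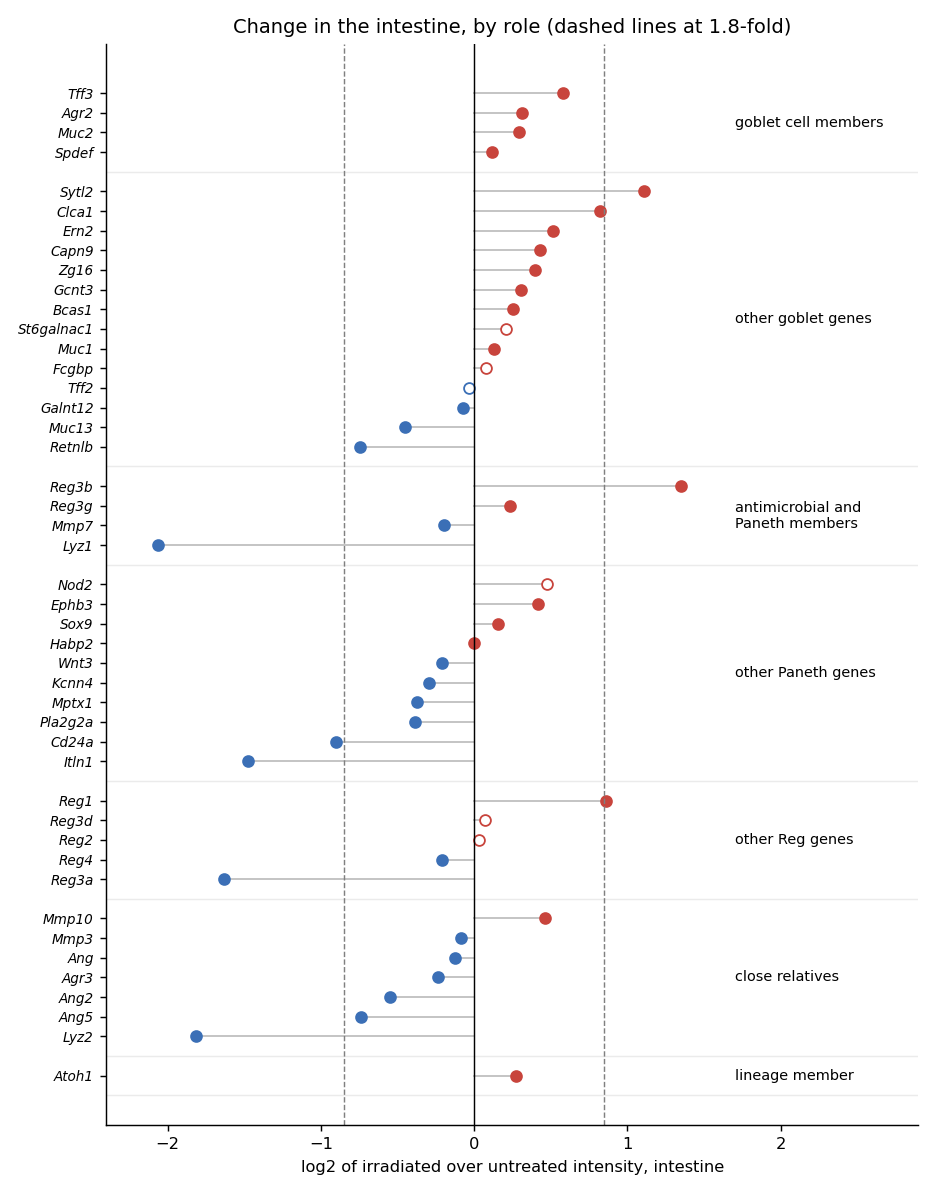
Log2 of irradiated over untreated intensity in intestine for the members and the related genes, grouped by role, with filled points where both intensities are at or above the column medians, open points otherwise, red above 0, blue below 0 and dashed lines at 1.8-fold. The 4 goblet cell members lie between 0.11 and 0.58, while Lyz1, Lyz2, Reg3a, Itln1 and Cd24a lie left of the lower line and Reg3b, Sytl2, Reg1 right of the upper one.

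Genes that control the secretory lineage were read beside Atoh1 and Spdef, and 13 had both intensities at or above the median probe. Several of these, such as Gfi1, Rbpj and Hes1, read close to it, which leaves little room to see a lower value. Of 18, all measured, 1 was higher and 0 were lower, beside 1.72% and 2.79% of all named genes, and the median log2 difference was -0.07. The call was Jag1, a Notch ligand, at 95 and 247.5 (2.61-fold higher). Xbp1, a factor for secretory capacity, read 1993.5 and 1572, Cdx2, an intestinal identity factor, 372 and 344.5, and Elf3, an epithelial ETS factor, 290.5 and 367, all within 1.8-fold. Of the genes with a direct tie to Atoh1, Hes1, its Notch-driven repressor, read 78 and 74.5 and Gfi1, its target, 65.5 and 74.5, both chosen for that tie with their values known.

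Of 13 genes of signals that are known to raise Reg3 genes, all measured, 7 had both intensities at or above the median probe. Past 1.8-fold 0 were higher and 1 was lower, beside 1.72% and 2.79% of all named genes. Above 0 were 12 of the 13, beside 8523 of 16595 named genes. The median log2 difference was 0.10, beside 0.02 over all named genes. Nfkb1, which encodes an NF-κB subunit, read 154 and 79 (1.95-fold lower). Il10rb, a subunit of the IL-22 receptor, read 719.5 and 991.5, Myd88, the Toll-like receptor adaptor, 145 and 249.5, and Socs3, a STAT3 target, 127 and 184, each within the threshold. Il22 read 44.5 and 46.0 and its receptor gene Il22ra1 51.5 and 53, all below the median probe, so no difference in these 2 genes was detectable. The Stat3 probes disagreed, at 101 and 202.5 on 1 and 134.5 and 140.5 on the other. Il22, Il22ra1 and Stat3 were singled out for their known role with their values seen.

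Markers of other cells and gut regions moved in the same pair of intestinal samples. Over all named genes 1.72% were higher and 2.79% lower past 1.8-fold, and over the bright ones 9.39% and 8.52%. All 5 hepatocyte markers were below 0 and 3 were past 1.8-fold lower, with Alb at 2175 and 268, Ttr at 218 and 115 and Cyp2e1 at 204.5 and 109.5. The summed intensity of the list went from 4582 to 1965.5. Most of that sum was Alb and Cps1, which read 1856.5 and 1397.5 and was within the threshold. In untreated liver Cps1 read 2244 and Alb 58716, so Cps1 hardly sets liver apart from intestine and is a poor hepatocyte marker here. Of 3 measured B cell markers 1 was lower, Cd79b at 471.5 and 71, and the list's sum went from 720 to 249. Of 5 measured colon markers 2 were lower, Slc26a3 at 1314.75 and 627 and Aqp8 at 413 and 198.5, with Car1, Hoxb13 and Hoxd13 below the median probe, and the sum went from 1862 to 956. Their part in the values of Lyz1, Lyz2, Itln1 and Reg3a was not tested.

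Other lists gave 1 call each, beside the same shares over all named genes. Of 12 measured pancreatic acinar markers 1 was lower, Ctrb1 at 1193.5 and 315.5, with Prss2, Pnlip, Cpa1, Ctrc and Ptf1a below the median probe. Their sum was 3637 and 3112. Of the 12, 7 were above 0 and 4 below, and the brightest, Clps, read 1710.5 and 2036.75. Of 7 measured macrophage and neutrophil markers 1 was lower, Adgre1 at 232.5 and 113, while 4 of the 7 were above 0 and 3 below. Their median log2 difference was 0.05 and their sum 687 and 600.4. Cd68 read 89.9 and 75.9, and Csf1r 103.2 and 107.9. The part of these cells in the Lyz2 value was not tested. Of 10 enteroendocrine markers 1 was higher, Sst, somatostatin, at 472.5 and 978, and the sum went from 3343 to 4531. Of these 10, 9 were above 0 and 1 below, with a median log2 difference of 0.39.

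The epithelium's other lists held no call, beside the same shares. Of 8 measured enterocyte markers 0 passed the threshold, with 6 above 0 and 2 below. Their median log2 difference was 0.31, beside 0.27 for the members and 0.23 for the further goblet cell genes. An upward median was thus not particular to goblet cell genes. The enterocyte sum was 126206 and 138836, a little higher in the irradiated sample. None of 6 crypt stem cell markers passed, with 4 below 0, a sum of 941.3 and 746.3 and Lgr5 at 46.5 in both samples, below the median probe. None of 6 smooth muscle, 6 tuft cell, 4 ileum or 4 duodenum and jejunum markers passed, with sums of 2851 and 3449, 376.3 and 347.8, 2641 and 3868, and 1298 and 1414. Most of the ileum sum was Slc51a, at 2362.5 and 3515.5. The ileum markers Fabp6, at 50.5 and 64, and Slc10a2, at 43.5 in both samples, did not rise above the median probe. The hepatocyte list summed to 132658 and 128724 in liver, and the brain markers to 17904 and 14037 in brain, so the liver and brain samples carried the defining genes of their labels.

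**Figure D5:**
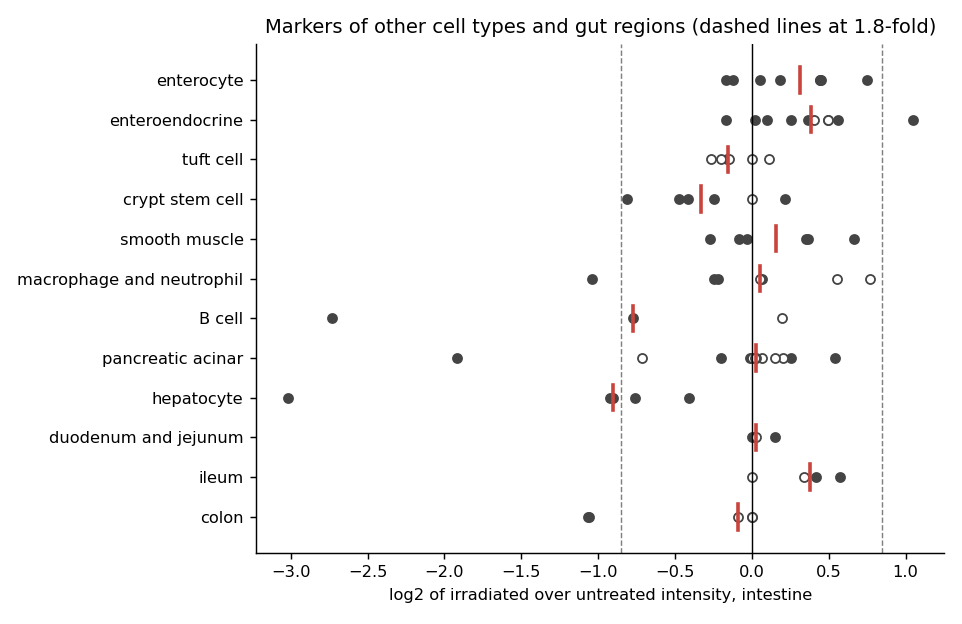
Log2 of irradiated over untreated intensity in intestine for markers of other cell types and gut regions, 1 point per gene, filled where both intensities are at or above the column medians and open otherwise, with the list's median as a red bar and dashed lines at 1.8-fold. The hepatocyte and B cell lists have the lowest medians, at -0.90 and -0.77, and the points past the lower line include Alb and Cd79b.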

How the data were processed

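Total RNA was amplified, labelled with Cy5 and hybridized to the Mouse Whole Genome OneArray of Phalanx, a single-colour oligonucleotide array, which was read on an Axon scanner with GenePix. The deposited values are linear normalized intensities: before deposit the authors took off the local background, dropped controls and any spot whose signal did not reach its noise, and normalized in R. The submitters' processing notes also list limma, with no version and no stated role. All deposited intensities are multiples of 0.25. The number of arrays limits the precision.

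Per probe and organ, irradiated intensity was divided by untreated intensity and the log2 taken, with nothing added, and averaged over the probes of a gene. A gene past 1.8-fold was called, and a fold is printed only where both intensities reached their column medians. Of 29922 probes 21020 carried a symbol, of which 17558 were current, 3429 were updated with RefSeq (GRCm38.p6) and 33 kept. There are 29781 values in intestine, 28395 in liver and 27017 in brain per column. The members and lists were chosen with earlier results of these data known. Named genes are all members, list genes past 1.8-fold with both intensities at or above the median, and up to 3 further genes of each related list, the brightest in untreated intestine. Of the markers of other cells and regions the rule takes those past 1.8-fold. Markers below the median probe, and a few brighter ones, are named beside them with their values known. The rule that calls genes was run on simulated data with planted changes far past the threshold and little noise. That run checks the code and does not measure how often a call in these samples is wrong. Alternatives were median scaling, quantile normalization of all 6 columns, removal of a loess trend (span 0.3), a pseudocount of 50, no probes below the 25th percentile, the brightest probe, and thresholds of 1.5-fold and 2-fold. Python 3.11.15, numpy 2.4.6, pandas 2.3.3, statsmodels 0.14.6, Biopython 1.88 and matplotlib 3.10.9 were used. The imaging and qPCR were not analysed here.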

Additional observations from a re-analysis of the deposited data

How the results depend on the processing

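The calls of Reg3b and Lyz1 in intestine, and the absence of a call for the other 7 measured members there, held under every alternative run, with Reg3b at 2.37- to 2.60-fold higher and Lyz1 at 3.85- to 4.49-fold lower. The brightest probe raised Muc2 in intestine from a log2 difference of 0.29 to 0.81. In liver 1 of 9 members was called in place of 0 when the brightest probe stood for a gene (Muc2, log2 0.89, on a probe that was also bright in brain), and 1 at the 1.5-fold threshold (Reg3b). In brain no alternative gave a call. Leaving out the probe listed as Clca1, a choice made after the values were seen, gave 2 calls among the other goblet cell genes in place of 1. Quantile normalization left Atoh1 without a value, and leaving out dim probes left only some of the members in liver and brain.

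Over all named genes in intestine, 285 were higher and 463 lower. With a pseudocount of 50 the counts were 164 and 290, at 2-fold 159 and 328, and at 1.5-fold 832 and 907. In liver, 244 and 408 became 129 and 222, 134 and 252, and 794 and 897 under the same 3 settings. In brain, 70 and 144 became 31 and 84, 36 and 73, and 377 and 522, and quantile normalization gave 114 and 220. Removing the trend with intensity took the share of calls that were higher from 38.1% to 28.2% in intestine. No paired analysis was possible because each organ and treatment has 1 column. For the same reason no replicate could be left out, and any value printed here could shift with another pair of animals. Ratios between dim probes, which most members have in liver and brain, are limited by the floor of the array.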
